A study of Mus musculus with 6 samples.

Results

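Tight junction, desmosome and polarity genes were described in sorted cells of mouse embryos at embryonic day 8.5. The members are the probe sets whose only gene symbol is a numbered claudin, a Tjp, Pkp, Crb, Llgl or Marveld gene, or 1 of 15 further names: Ocln, Cgn, F11r, Pard3, Pard6b, Prkci, Prkcz, Mpp5, Jup, Dsp, Epcam, Spint1, Spint2, St14 and Prss8. They came to 48 genes of 18194, read by 87 of the 45101 probe sets of the arrays. The 3 GFP-positive arrays hold cells sorted for a GFP reporter of Noto, a homeobox gene of the node and of notochord precursors, and the 3 GFP-negative arrays hold the cells sorted without it. Both groups carry the reporter allele: the embryos were heterozygous for Noto-GFP, on a mixed 129S3;ICR background, of mixed sex and with a median of 6 somites. Tissue behind the SI-SII somite boundary was dissociated in 1% trypsin, so the GFP-negative cells are a mixture of the other cells of that tissue, and the reporter alone defines the GFP-positive ones. Each array comes from a pool of embryos, and both groups share the pools: 23 embryos in pool 1, 39 in pool 2 and 52 in pool 3, from which about 2600, 4300 and 6600 GFP-positive cells were sorted. The question was which of these genes differ between the 2 sorted populations.

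Tight junctions seal the space between epithelial cells below their apical face. Claudins form the sealing strands, occludin and the MARVEL proteins sit in the same strands, and the Tjp proteins and cingulin tie them to actin. The Crumbs and Par complexes mark the apical side of the cell, Lgl proteins the basolateral side, and desmosomes rivet neighbouring cells through a plaque of desmoplakin, plakoglobin and plakophilins. Epcam and the inhibitors Spint1 and Spint2, which restrain the membrane protease matriptase (St14), are epithelial surface proteins known to affect claudin stability. At this stage of mouse development, notochord precursors are an epithelial sheet in the roof of the gut, continuous with the endoderm.

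The arrays of pool 1 stood apart from the other 4. The Gapdh control ratio of 3′ over 5′ signal was 14.0 on the GFP-positive and 15.4 on the GFP-negative array of pool 1, against 1.60 to 2.22 on the arrays of pools 2 and 3. Over the 27821 tested probe sets the GFP-negative array of pool 1 correlated at 0.964 with the GFP-positive array of its own pool, and at 0.938 and 0.914 with the other GFP-negative arrays. Results are therefore also given without the GFP-negative array of pool 1 and without pool 1. Intensities are linear, and fold changes are differences of log2(intensity + 32), which understates changes of dim probe sets. A probe set was tested if at least 3 arrays had it at or above the 40th percentile of their own values, which lay between 11.7 and 18.4. This kept 61 of the 87 members, of 42 genes. A change was called at an adjusted p under 0.05 in limma over all tested probe sets. The group was the only term of this fit, so its p-values measure the spread among the arrays of each group, from these 3 pools. That spread includes differences between pools that both groups share. In sorted bulk samples fewer cells of a type and less RNA per cell cannot be told apart.

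In GFP-positive cells, a set of epithelial claudins and the protease inhibitors Spint1 and Spint2 were higher, and the endothelial claudin Cldn5 was lower. Cldn9, Spint2, Cldn7, Spint1 and Cldn1 rose by log2 fold changes between 1.08 and 1.61, and Cldn5 fell by 1.17 on the log2 scale. Among the 87 probe sets 5 passed as higher, each for another gene, and 1 as lower, while 55 failed the threshold and 26 were not tested. Of all tested probe sets, 1.26% were higher and 0.55% lower, and of the tested members 8.2% were higher and 1.64%, which is 1 probe set, lower. The median log2 fold change of the 87 members was 0.00, and that of all probe sets was -0.05. A fit with the embryo pool as a block, called the blocked fit here, found 13 member probe sets of 11 genes higher and 5 of 5 genes lower. These are 21.3% and 8.2% of the tested members, against 4.93% and 4.93% of all tested probe sets. The 6 calls made without the block are among them.

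Overlap between the groups was counted over all members. In 18 of the 87 members, or 20.7%, every GFP-positive array lay above every GFP-negative one, against 8.5% of all probe sets outside the controls. In 13 members, or 14.9%, every GFP-positive array lay below, which is near the 13.1% of all. The calls depended on single arrays. None of the 6 called members passed in limma without the GFP-positive array of pool 2 or of pool 3, without the GFP-negative array of pool 2, or without pool 2 or pool 3 as a whole; Cldn9 alone passed without the GFP-negative array of pool 3, and Cldn1 and Cldn5 did not pass without the GFP-positive array of pool 1. All 6 passed without the GFP-negative array of pool 1 and without pool 1. Without that array, 9 of 60 tested members were higher and 9 lower, against 1880 and 2183 of all 26752 tested probe sets. Without pool 1, 15 of 58 tested members were higher and 12 lower, against 3563 and 4080 of all 25053. Members said below to pass only without pool 1 are to be read beside these counts of all probe sets. In the blocked fit all 6 passed without any 1 pool, though each such fit has only 4 arrays.

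**Figure D1:**
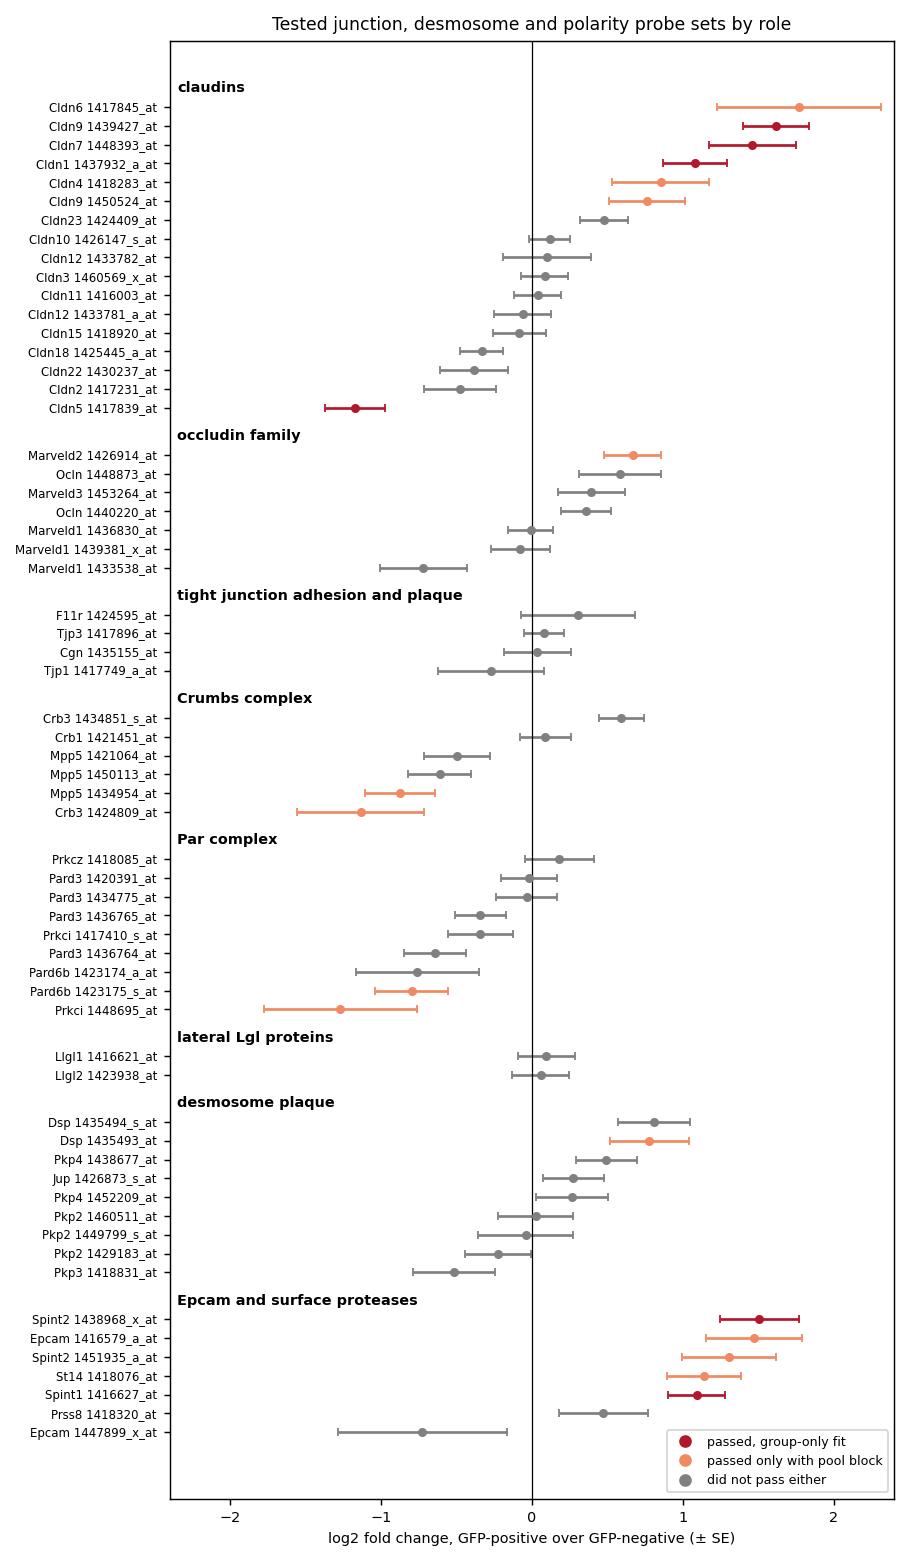
Log2 fold change of GFP-positive over GFP-negative cells with its SE for the 61 tested member probe sets, grouped by role (3 arrays a group). Red points passed the fit without the block, orange points the blocked fit only, and grey points neither; the claudin, Epcam, Spint and St14 points that passed as higher lie between 0.76 and 1.77, and most Par and Crumbs points lie below 0.

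Claudins carried most of the calls. Of 30 claudin probe sets for 20 genes, 17 were tested. Of these 17, 3 were higher and 1 lower, or 17.6% and 5.88%, against 1.26% and 0.55% of all tested probe sets. The other 13 tested ones missed the threshold. The median log2 fold change of the 30 was 0.04. Cldn9, a claudin of tight epithelia such as the inner ear, had intensities of 364, 462 and 523 in GFP-positive cells of pools 1, 2 and 3, against 121, 113 and 139 in GFP-negative cells. Every GFP-positive array lay well above every GFP-negative one, and the log2 fold change was 1.61 ± 0.22 (SE, n = 3 arrays a group, adjusted p = 0.0124). Its other tested probe set, 1450524_at, read 30.7, 70.9 and 73.7 in GFP-positive against 14.9, 13.9 and 32.6 in GFP-negative cells, with pool 1 of the GFP-positive cells inside the GFP-negative range. Its log2 fold change of 0.76 ± 0.25 did not pass (adjusted p = 0.161), and passed in the blocked fit (adjusted p = 0.0409), within alternatives from 0.000319 to 0.947.

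Cldn7, a claudin that binds Epcam in epithelia, had intensities of 162, 321 and 297 in GFP-positive against 51.5, 94.2 and 70.4 in GFP-negative cells. The lowest GFP-positive value was that of pool 1, whose GFP-negative value was also the lowest of its group, and the groups did not overlap. The log2 fold change was 1.46 ± 0.29 (adjusted p = 0.0468), and it was 1.58 without pool 1. Cldn1, the claudin of the epidermal barrier, had 108, 58.4 and 80.4 in GFP-positive against 16.5, 28.5 and 19.4 in GFP-negative cells. Here pool 1 had the widest gap, and the log2 fold change of 1.08 ± 0.21 (adjusted p = 0.0467) was 0.85 without pool 1. The other 3 probe sets of Cldn1 were not tested and stayed at or below 13.2 on all 6 arrays.

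Cldn5, the main claudin of blood vessels, ran the other way. Its intensities were 22.6, 26.1 and 37.7 in GFP-positive against 85.2, 119 and 110 in GFP-negative cells. The groups were wide apart in every pool, and the log2 fold change was -1.17 ± 0.20 (adjusted p = 0.0295). Of 6 endothelial and blood markers Kdr was lower (-2.94 ± 0.34, adjusted p = 0.00603), and the blocked fit also called Cdh5, Gata1, Hba-x and Hbb-bh1 lower. The summed intensity of the 6 was 230 to 3394 on GFP-positive against 5694 to 14904 on GFP-negative arrays. The blood gene Hbb-bh1 made the largest part of it, at 124 to 2896 against 4653 to 9951. The endothelial gene Kdr had 52.7 to 174 against 765 to 1099. Pecam1 and 1 Cdh5 probe set were under the filter, and the part of these 6 genes in the Cldn5 result was not tested.

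**Figure D2:**
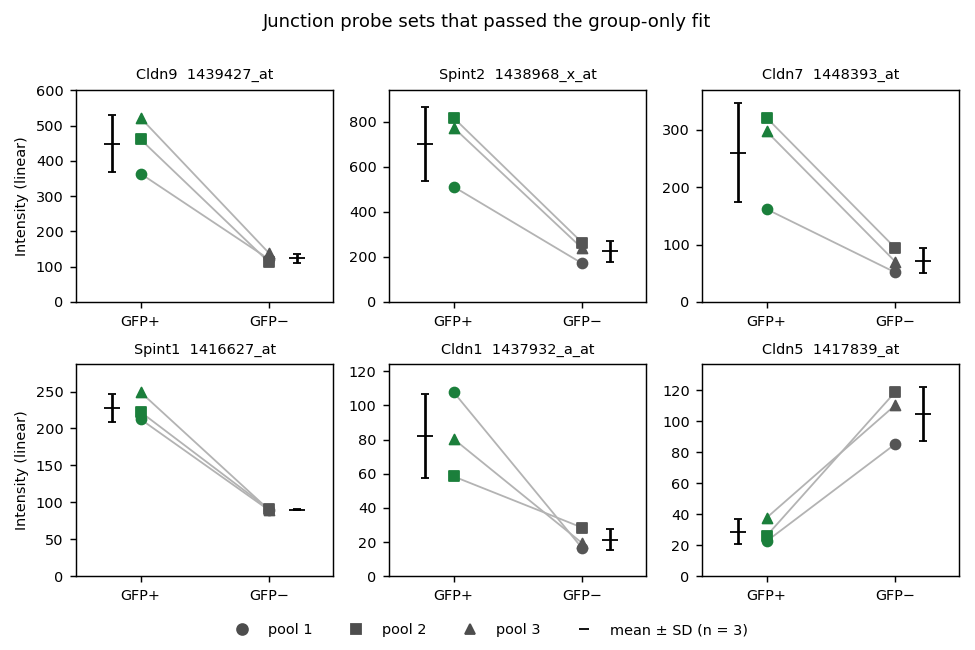
Intensity (linear) on each of the 6 arrays for the 6 member probe sets that passed, with lines joining the arrays of 1 pool and the mean with SD (n = 3) beside each group. Cldn9, Spint2, Cldn7, Spint1 and Cldn1 lie higher in GFP-positive cells in all 3 pools, and Cldn5 lower.

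Cldn6 and Cldn4 passed in the blocked fit only and were picked after their values were seen. Cldn6, a claudin of embryonic epithelia, had the largest log2 fold change of the 87 members, with 176, 621 and 720 in GFP-positive against 41.4, 149 and 162 in GFP-negative cells. The log2 differences within pools were 1.50, 1.85 and 1.96, but both arrays of pool 1 lay far below the rest of their groups. The fold change of 1.77 ± 0.54 had an adjusted p of 0.139, and of 0.00167 in the blocked fit, within alternatives from 3.89e-11 to 0.94. Cldn4, known as a claudin of simple epithelia, had 25.1, 76.9 and 91.2 in GFP-positive against 6.86, 34.5 and 18.4 in GFP-negative cells (0.85 ± 0.32, adjusted p = 0.204, and 0.0321 in the blocked fit, within alternatives from 0.000153 to 0.885). The GFP-positive array of pool 1 lay inside the GFP-negative range. In the RefSeq table of assembly GRCm38.p6, Cldn6 and Cldn9 are next to each other among protein-coding genes on chromosome 17, and Cldn4 and Cldn3 are next to each other on chromosome 5. Both neighbours on chromosome 17 had positive log2 fold changes, whereas the tested probe set of Cldn3 had 0.09 ± 0.16 and its other 3 were under the filter, at or below 19.5.

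The remaining claudins did not pass either fit. Cldn12, which is widely expressed, had 2523, 3417 and 3480 in GFP-positive against 3042, 3307 and 3395 in GFP-negative cells, and the log2 fold change was -0.06 ± 0.19. The values of the groups interleave, and its other probe set gave 0.10 ± 0.29. Cldn23 had 0.48 ± 0.16, while Cldn2, Cldn22 and Cldn18 had -0.47 ± 0.24, -0.39 ± 0.22 and -0.33 ± 0.14. Without pool 1 Cldn2 passed as lower (-0.61, adjusted p = 0.0319, within alternatives from 0.0115 to 0.947). Cldn10, Cldn11 and Cldn15 lay between -0.09 and 0.12. Cldn8, Cldn13, Cldn14, Cldn16 and Cldn19 had no tested probe set. Of these, Cldn13 had 3.97, 2.19 and 1.55 in GFP-positive against 11, 28.8 and 75.2 in GFP-negative cells, without overlap but with too few arrays above the filter for a test.

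The promoters of the called genes are shown because these members passed together, with Cldn5 as the one in the other direction. RefSeq start sites (GRCm38.p6) with 250 bases before and 50 after were found for 36 of the 48 member genes, 52 promoters in all, and for 5 of the 6 called genes; Cldn9 had no entry. In the sequences, capitals mark CAGGTG or its reverse CACCTG, the E-box that Snail and Zeb repressors of epithelial genes are known to bind, and GGGCGG or its reverse CCGCCC, the GC box of Sp factors. No base belonged to both motifs in these promoters.
Spint2 (chr7:29281928-29282227, minus strand): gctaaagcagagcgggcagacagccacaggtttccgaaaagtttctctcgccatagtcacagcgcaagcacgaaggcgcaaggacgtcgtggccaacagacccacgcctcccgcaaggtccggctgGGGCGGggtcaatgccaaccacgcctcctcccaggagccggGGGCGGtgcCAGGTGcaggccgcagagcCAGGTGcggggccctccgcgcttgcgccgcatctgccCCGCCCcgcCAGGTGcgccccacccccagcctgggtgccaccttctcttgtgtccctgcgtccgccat
Cldn7 (chr11:69965171-69965470, plus strand): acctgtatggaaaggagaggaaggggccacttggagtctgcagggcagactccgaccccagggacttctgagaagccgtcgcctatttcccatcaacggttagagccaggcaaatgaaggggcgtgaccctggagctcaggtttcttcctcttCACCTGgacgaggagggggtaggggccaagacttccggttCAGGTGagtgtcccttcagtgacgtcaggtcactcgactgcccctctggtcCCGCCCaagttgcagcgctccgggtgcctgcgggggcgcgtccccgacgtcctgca
Spint1 (chr2:119237110-119237409, plus strand): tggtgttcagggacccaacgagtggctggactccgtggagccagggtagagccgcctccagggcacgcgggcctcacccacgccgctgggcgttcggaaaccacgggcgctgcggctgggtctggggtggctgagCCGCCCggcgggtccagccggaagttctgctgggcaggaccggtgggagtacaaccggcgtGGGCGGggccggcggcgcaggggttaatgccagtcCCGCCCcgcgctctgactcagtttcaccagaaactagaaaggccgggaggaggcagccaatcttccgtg
Cldn1 (chr16:26371790-26372089, minus strand): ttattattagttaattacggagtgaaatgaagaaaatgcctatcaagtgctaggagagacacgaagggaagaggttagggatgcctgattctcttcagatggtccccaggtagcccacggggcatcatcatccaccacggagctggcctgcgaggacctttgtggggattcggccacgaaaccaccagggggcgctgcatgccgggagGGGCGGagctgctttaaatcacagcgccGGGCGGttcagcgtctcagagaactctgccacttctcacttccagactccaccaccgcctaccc
Cldn5 (chr16:18776597-18776896, plus strand): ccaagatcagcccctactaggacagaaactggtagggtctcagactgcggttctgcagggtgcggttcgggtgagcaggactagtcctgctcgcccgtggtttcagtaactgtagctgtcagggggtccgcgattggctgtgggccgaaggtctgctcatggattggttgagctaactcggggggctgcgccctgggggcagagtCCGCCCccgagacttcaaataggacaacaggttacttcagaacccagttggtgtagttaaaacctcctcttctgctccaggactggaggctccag

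The Spint2 promoter held 3 CAGGTG matches and the one of Cldn7 shown held 2, while Spint1, Cldn1, Cldn5 and the other Cldn7 promoter held 0. Over all 52 member promoters, some of which overlap because they belong to start sites of 1 gene, 22 held the E-box, or 42.3%, against 20.2% of 32851 promoters in the table. These 22 belong to 17 genes, among them Epcam, Cldn4 and Cldn6 with 2 matches each and Crb3 with 4 in each of its overlapping promoters. Pard3 had 3 in a promoter, Pard6b had 2, and Ocln and Prkcz had up to 2. The E-box was in 2 of 6 promoters of called genes and in 20 of 46 promoters of the other members. The GC box stood in 34 of the 52, or 65.4%, against 35.7% of all. Neither the forkhead letters TGTTTAC nor the Grainyhead-like letters AACCGGTT, searched on both strands, were in any of the 52, against 3.65% and 0.146% of all promoters, and TATAAA was in 4, or 7.69%, against 13.6%. These are matches of letters in a fixed window, and no binding was measured.

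Epcam, the surface proteases and their inhibitors had a median log2 fold change of 1.14 over 7 probe sets of 5 genes, all of them tested. Of these, 2 were higher (28.6%, against 1.26% of all tested probe sets) and 5 missed the threshold. The blocked fit called 5 higher, of 4 genes (71.4%, against 4.93% of all tested probe sets). No probe set was lower in either fit with all arrays, also at an unadjusted p under 0.05 in limma (0 of 7), a bound that 8.89% of all tested probe sets passed as higher and 10% as lower. Spint2 (probe set 1438968_x_at) had 512, 818 and 774 in GFP-positive against 171, 264 and 238 in GFP-negative cells, with no overlap. Its log2 fold change was 1.51 ± 0.26 (adjusted p = 0.0300). This type of array probe set can share probes with other sequences, and the other Spint2 probe set, 1451935_a_at, gave 1.30 ± 0.31 (adjusted p = 0.0766, and 0.00434 in the blocked fit, within alternatives from 7.12e-07 to 0.926). Spint1, the closely related inhibitor, had 213, 222 and 249 in GFP-positive against 89.4, 90.8 and 89.8 in GFP-negative cells. The 3 arrays of each group lay close together, and the log2 fold change was 1.09 ± 0.19 (adjusted p = 0.0321).

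St14 and Epcam passed in the blocked fit only, and they and Prss8 were picked after their values were seen. St14, the protease itself, had 109, 163 and 152 in GFP-positive against 26.9, 56.8 and 58.3 in GFP-negative cells, with no overlap (1.14 ± 0.25, adjusted p = 0.0624, and 0.00698 in the blocked fit, within alternatives from 1.43e-05 to 0.867). Epcam probe set 1416579_a_at had 503, 817 and 878 in GFP-positive against 163, 352 and 228 in GFP-negative cells, again with no overlap (1.47 ± 0.32, adjusted p = 0.0617, and 0.00424 in the blocked fit, within alternatives from 1.41e-08 to 0.659). With 1 probe set per gene and adjustment over genes, both Epcam and St14 passed, Epcam through its brighter probe set 1416579_a_at. The other Epcam probe set, 1447899_x_at, went the other way (-0.73 ± 0.56, adjusted p = 0.512). Without pool 1 it passed as lower in limma, as given below. Prss8, the protease prostasin that matriptase is known to act with, had 33, 56.4 and 76.2 in GFP-positive against 8.63, 43.6 and 43.8 in GFP-negative cells, which overlap (0.47 ± 0.30, adjusted p = 0.421).

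**Figure D3:**
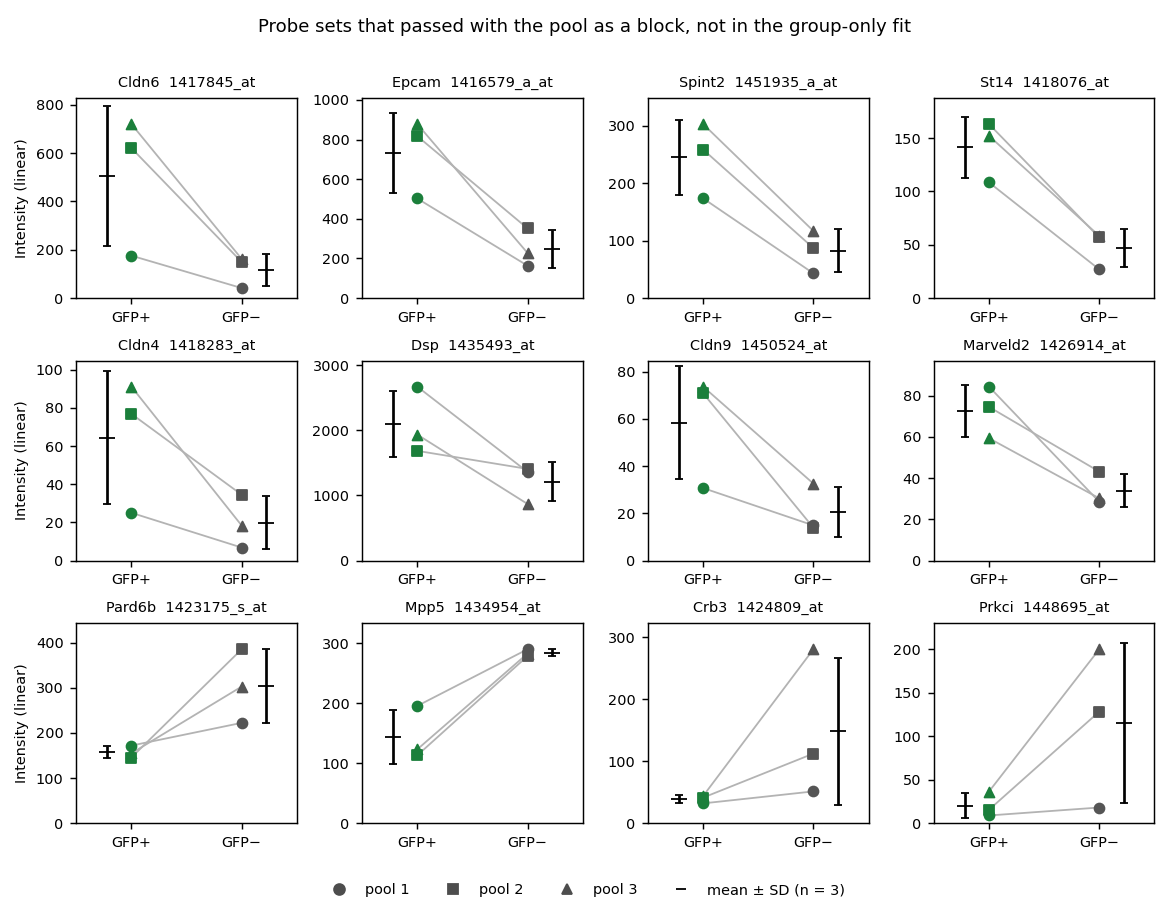
Intensity (linear) on each array for the 12 member probe sets that passed in the blocked fit and not without the block, with lines joining the arrays of 1 pool and the mean with SD (n = 3). Cldn6, Epcam, Spint2, St14, Cldn4, Dsp, Cldn9 and Marveld2 were higher in GFP-positive cells in all 3 pools, and Pard6b, Mpp5, Crb3 and Prkci lower in all 3.

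Genes of the general tight junction strand and plaque gave no call in the fit without the block. In the occludin family, 7 of 10 probe sets were tested and 0 passed in limma without the block. At an unadjusted p under 0.05 in limma, 1 was higher and 1 lower (8.89% and 10% of all tested). The blocked fit called 1 higher, or 14.3%, against 4.93% of all tested. Marveld2, the protein tricellulin of junctions where several cells meet, had 84.3, 74.5 and 59.3 in GFP-positive against 28.5, 43.1 and 30.2 in GFP-negative cells. The groups did not overlap (0.67 ± 0.19, adjusted p = 0.123, and 0.0459 in the blocked fit, within alternatives from 0.0284 to 0.94). Marveld1 probe set 1439381_x_at had 128, 152 and 156 in GFP-positive against 156, 164 and 144 in GFP-negative cells, which overlap (-0.08 ± 0.20); its other tested probe sets gave -0.72 ± 0.29 and -0.01 ± 0.15. Occludin had log2 fold changes of 0.36 ± 0.17 and 0.58 ± 0.27 from its 2 probe sets and Marveld3 had 0.39 ± 0.22, none of which passed with all arrays. Without pool 1 the occludin probe set 1448873_at passed as higher (0.83, adjusted p = 0.00719, within alternatives from 0.000953 to 0.958). There Marveld1 probe set 1433538_at passed as lower (-0.91, adjusted p = 0.0235, within alternatives from 0.000675 to 0.94).

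For the adhesion molecule F11r and the plaque proteins, 4 of 6 probe sets were tested and 0 passed in limma, in either fit or at an unadjusted p under 0.05. Tjp1, the plaque protein ZO-1, had 2166, 1292 and 1124 in GFP-positive against 2785, 1661 and 1210 in GFP-negative cells. The arrays of pool 1 were the highest of both groups, and the groups overlapped (-0.27 ± 0.35, adjusted p = 0.71). F11r, the adhesion molecule JAM-A, had 583, 832 and 1035 in GFP-positive against 344, 810 and 919 in GFP-negative cells, with log2 differences of 0.71, 0.04 and 0.17 within pools (0.30 ± 0.38, adjusted p = 0.697). Cingulin had 0.03 ± 0.22 and Tjp3 0.08 ± 0.13.

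In the apical polarity genes, 4 of 6 tested Crumbs and 8 of 9 tested Par probe sets had negative log2 fold changes, against 53.5% of all tested probe sets. The tested probe sets read only 3 Crumbs and 4 Par genes, so several are of the same gene and are not independent. Of 19 probe sets of the Crumbs and Par complexes, 15 were tested and 0 passed in limma without the block. The blocked fit called 2 lower in each complex. These are 33.3% of the tested Crumbs and 22.2% of the tested Par probe sets, against 4.93% of all tested probe sets. At an unadjusted p under 0.05, 4 Crumbs and 3 Par probe sets were lower and 1 Crumbs probe set higher, where the shares of all tested probe sets are 10% and 8.89%. The lower Crumbs probe sets were all 3 of Mpp5 and 1 of Crb3, and the higher one was also of Crb3. Mpp5, the Pals1 scaffold that links Crumbs to the junction, had 195, 113 and 123 in GFP-positive against 290, 278 and 283 in GFP-negative cells for probe set 1434954_at. The groups did not overlap (-0.87 ± 0.23, adjusted p = 0.105, and 0.0288 in the blocked fit, within alternatives from 6.91e-06 to 0.94). The probe set 1421064_at had 163, 160 and 134 in GFP-positive against 267, 237 and 185 in GFP-negative cells, also without overlap (-0.50 ± 0.22, adjusted p = 0.261), and the third gave -0.61 ± 0.21, which passed without pool 1 (-0.79, adjusted p = 0.0178, within alternatives from 0.00212 to 0.94). For Mpp5, all 3 probe sets had lower values in GFP-positive cells in all 3 pools.

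Prkci, the atypical protein kinase C of the Par complex, had 1256, 1446 and 1653 in GFP-positive against 1481, 2067 and 2025 in GFP-negative cells for probe set 1417410_s_at. These overlap, and the log2 fold change was -0.34 ± 0.21 (adjusted p = 0.419), and -0.40 without pool 1 (adjusted p = 0.0407, within alternatives from 0.028 to 0.968). The other, 1448695_at, had 8.94, 15.5 and 36.4 in GFP-positive against 18.1, 128 and 200 in GFP-negative cells, and its high values were on the GFP-negative arrays of pools 2 and 3 (-1.27 ± 0.51, adjusted p = 0.228, and 0.0335 in the blocked fit, within alternatives from 5.11e-09 to 0.947). Pard6b, its adaptor in that complex, had 172, 145 and 157 in GFP-positive against 129, 511 and 349 in GFP-negative cells for probe set 1423174_a_at (-0.76 ± 0.41, adjusted p = 0.348). There the GFP-negative array of pool 1 lay below all GFP-positive arrays, and without it the log2 fold change was -1.26 (adjusted p = 0.0108, within alternatives from 2.73e-07 to 0.969). The probe set 1423175_s_at had 172, 146 and 155 in GFP-positive against 222, 385 and 303 in GFP-negative cells and did not overlap (-0.80 ± 0.24, adjusted p = 0.133, and 0.0487 in the blocked fit, within alternatives from 9.42e-06 to 0.947). This probe set and 1448695_at of Prkci were picked after their values were seen.

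The other polarity members showed less. The 4 tested probe sets of the scaffold Pard3 lay between -0.64 and -0.02, and Prkcz had 0.18 ± 0.23. Crb1, a Crumbs protein of retina, had 0.09 ± 0.17. Llgl1, the basolateral Lgl protein, had 1175, 1230 and 1264 in GFP-positive against 1296, 1023 and 1128 in GFP-negative cells (0.09 ± 0.19, adjusted p = 0.825). Llgl2 had 63.3, 66.5 and 66.5 in GFP-positive against 51.9, 77.4 and 57.5 in GFP-negative cells (0.06 ± 0.19, adjusted p = 0.9). In both Lgl genes the groups overlapped.

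Of the desmosome plaque, 9 of 13 probe sets were tested and 0 passed in limma without the block. At an unadjusted p under 0.05 in limma there were 3 higher and 0 lower (8.89% and 10% of all tested). The blocked fit called 1 higher, or 11.1%, against 4.93% of all tested. Desmoplakin (Dsp), which anchors keratin filaments, had 2669, 1684 and 1934 in GFP-positive against 1361, 1407 and 869 in GFP-negative cells for probe set 1435493_at. The groups did not overlap, but pool 2 differed by only 0.25 on the log2 scale, against 0.95 in pool 1 and 1.13 in pool 3 (0.78 ± 0.26, adjusted p = 0.168, and 0.0473 in the blocked fit, within alternatives from 0.00112 to 0.923). Its other tested probe set gave 0.81 ± 0.24, with the smallest difference again in pool 2, and it passed without pool 1 (0.54, adjusted p = 0.0372, within alternatives from 0.00591 to 0.849). Pkp4, a plakophilin relative also found outside desmosomes, had 2689, 1878 and 2232 in GFP-positive against 2428, 1809 and 1463 in GFP-negative cells (0.27 ± 0.24, adjusted p = 0.584), and 0.49 ± 0.20 from its other probe set, which passed without pool 1 (0.56, adjusted p = 0.0199, within alternatives from 0.00552 to 0.959). Plakoglobin (Jup) had 0.27 ± 0.20, the 3 tested probe sets of Pkp2 lay between -0.23 and 0.02, and Pkp3 had -0.52 ± 0.27. Without pool 1 Pkp3 passed as lower (-0.78, adjusted p = 0.0214, within alternatives from 0.00193 to 0.948). Pkp1 was not tested, at 1.71 to 4.02 in GFP-positive against 9.04 to 45.9 in GFP-negative cells.

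Of the 14 genes with more than 1 tested probe set, 10 had log2 fold changes of 1 sign and 4 had both. Among these 4, Cldn12 and Pkp2 lay near 0. Epcam probe set 1447899_x_at had 67.4, 76.7 and 91.9 in GFP-positive against 33.2, 212 and 349 in GFP-negative cells, so that pool 1 differed by 0.61 and pools 2 and 3 by -1.17 and -1.62 on the log2 scale. Its value was -0.73 ± 0.56 (adjusted p = 0.512), and -1.40 without pool 1 (adjusted p = 0.00231, within alternatives from 1.51e-07 to 0.971). The other Epcam probe set gave 1.48 there (adjusted p = 0.000922). The 2 probe sets of Epcam thus passed in opposite directions without pool 1, and the direction for this gene depends on which is read; probe sets of the type of 1447899_x_at can share probes with other sequences. Crb3, the epithelial Crumbs protein, had 32.1, 41.4 and 44.0 in GFP-positive against 51.4, 113 and 281 in GFP-negative cells for 1424809_at (-1.13 ± 0.42, adjusted p = 0.199, and 0.0448 in the blocked fit, within alternatives from 5.52e-07 to 0.94). For 1434851_s_at it had 24.8, 27 and 28 in GFP-positive against 11.7, 1.51 and 8.11 in GFP-negative cells, a log2 difference of 0.59. That probe set was above the filter on 3 GFP-positive and 0 GFP-negative arrays. As the only member kept through 1 group alone, it was left out and its test is not used here. It is the Crumbs probe set counted as higher at an unadjusted p. It is also among the 9 member probe sets that passed as higher without the GFP-negative array of pool 1. The 9 that were higher at an adjusted p under 0.1 include it too.

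**Figure D4:**
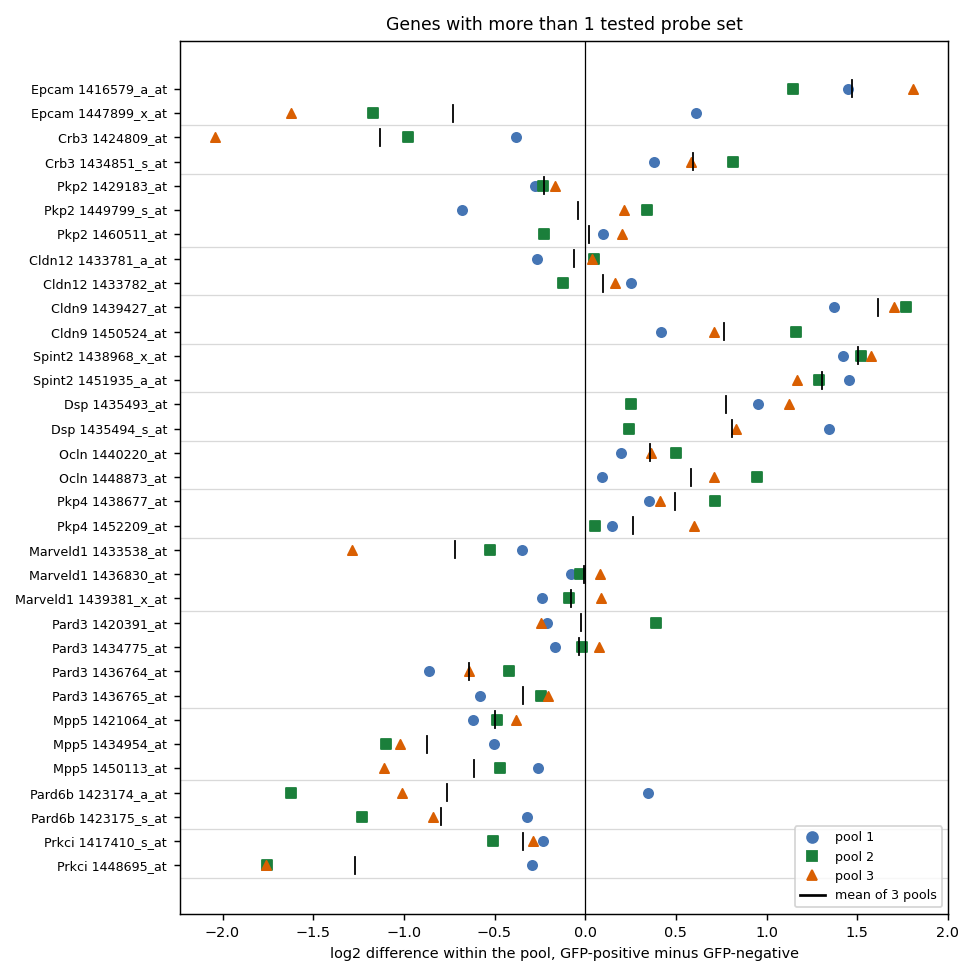
Log2 difference of GFP-positive minus GFP-negative within each pool for every tested probe set of the 14 genes with more than 1, with a black bar at the mean of the 3 pools. The means of the 2 probe sets of Epcam and of Crb3 lie on opposite sides of 0, though both Epcam points of pool 1 are above it, those of Spint2 and Cldn9 lie above 0 and those of Mpp5 below 0 in all 3 pools.

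Other genes of the same structures were read from a list of 52 names, of which 46 had a probe set of their own. Of their 119 probe sets 84 were tested, 3 were higher and 1 lower, or 3.57% and 1.19% against 1.26% and 0.55% of all. In the blocked fit 10 were higher and 7 lower, or 11.9% and 8.33% against 4.93% each way. All 3 higher ones belong to the membrane protease Tmprss2. Its probe set 1458347_s_at had 1458, 1139 and 1128 in GFP-positive against 107, 63.9 and 55.8 in GFP-negative cells (3.59 ± 0.25, adjusted p = 0.000693), while 1419154_at gave 3.36 and 1449369_at gave 1.23. The Tmprss2 probe sets 1458347_s_at and 1419154_at passed in every alternative in which they were tested, apart from the fit without pool 2 and without the block. The lower one was Magi3, a scaffold of tight junctions, with 101, 97.9 and 80.2 in GFP-positive against 359, 343 and 323 in GFP-negative cells (-1.58 ± 0.20, adjusted p = 0.00900). Its groups were wide apart, and it did not pass without the GFP-positive array of pool 2 or of pool 3, the GFP-negative array of pool 2, or pool 2 or 3 as a whole, without the block. Of 9 tested desmosomal probe sets 0 passed in limma, and 1 was higher at an unadjusted p under 0.05 (8.89% of all tested). That one was Perp, a desmosomal membrane protein, which passed in the blocked fit (0.83 ± 0.26, adjusted p = 0.149, and 0.0440 in the blocked fit, within alternatives from 0.00481 to 0.92). The median log2 fold change of the 119 was -0.05, and that of all probe sets was the same at this rounding.

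Markers of cell types in this tissue are given for comparison, as numbers of genes that passed and as summed intensity of each gene's brightest probe set. Of 8 node and notochord genes, 4 (Chrd, Foxa1, Foxa2 and Shh) were higher, with sums of 6200 to 8416 on GFP-positive against 116 to 540 on GFP-negative arrays; Noto and T had no probe set named here. The blocked fit called the same 4. Of 8 gut endoderm genes, whose cells are also epithelial, 0 were higher in limma and Hhex was lower, with sums of 636 to 2335 on GFP-positive against 615 to 1283 on GFP-negative arrays, which overlap. At an unadjusted p under 0.05, 2 were higher and 2 lower, and the blocked fit called Afp (1.37, adjusted p = 0.0114, within alternatives from 2.62e-07 to 0.94) and Cer1 (1.02, adjusted p = 0.0394, within alternatives from 3.67e-05 to 0.94) higher. Of 6 surface ectoderm genes, another epithelium, Tfap2a was lower, with sums of 197 to 272 against 338 to 385, and the blocked fit added Wnt6 as higher and Trp63 as lower. Wnt6 passed the blocked fit through 1435980_x_at (0.68, adjusted p = 0.0334, within alternatives from 0.00661 to 0.94). Its brighter probe set 1419708_at did not pass there (0.43, adjusted p = 0.181), and its groups overlapped. Dlx5 was above the filter on GFP-negative arrays only, and its call is not counted here. Of 5 lateral mesoderm genes, 4 were lower (Prrx1, Foxf1, Hand2 and Tbx20; 282 to 464 against 1801 to 4302), and the blocked fit added Hand1, through a probe set above the filter on GFP-negative arrays only. Of 4 presomitic mesoderm genes 0 passed in limma and 2 were higher at an unadjusted p under 0.05, with sums of 600 to 1344 against 211 to 526. The blocked fit called these 2 higher, Hes7 (1.48, adjusted p = 0.00361, within alternatives from 3.09e-08 to 0.931) and Mesp2 (1.07, adjusted p = 0.0253, within alternatives from 4.45e-07 to 0.94). Of 4 neural plate and 3 germ cell genes 0 passed in limma, and 2 and 1 were lower at an unadjusted p under 0.05. These were Olig3, Pax6 and Prdm1, which the blocked fit called lower, with sums of 569 to 590 against 463 to 786 for the neural plate and 59.6 to 76 against 106 to 220 for germ cells. Sox2, at 488 to 524 against 324 to 651, made most of the neural plate sum. The part of any of these cell types in the junction results was not tested.

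**Figure D5:**
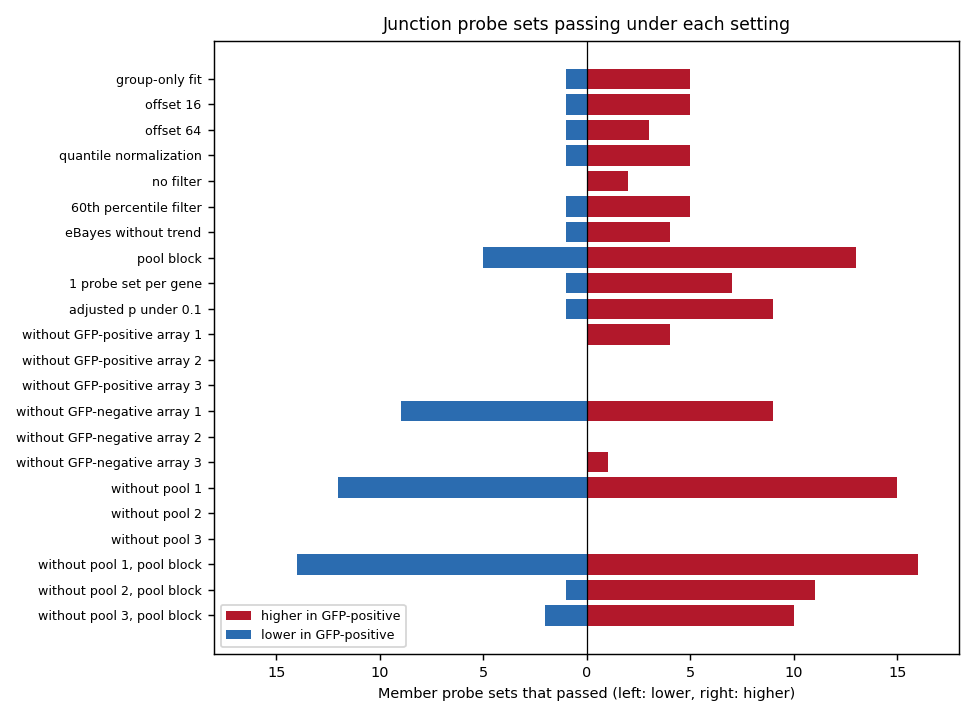
Number of member probe sets that passed under each setting of the analysis, with those higher in GFP-positive cells to the right and those lower to the left. The count was 5 higher and 1 lower in the fit without the block and 13 and 5 in the blocked fit, and 0 and 0 when pool 2 or pool 3 was left out without the block.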

How the data were processed

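Expression was measured on 6 Affymetrix arrays, 3 of GFP-positive and 3 of GFP-negative cells, after two-cycle amplification, per the labels' protocols. The deposited values are intensities on a linear scale, made by the authors with GCOS 1.4, per the submitters' processing notes. The authors' scaling left a mean of 150.001 on each array after trimming 2% at each end; other steps and detection calls are not given in the sources used here, so the number of arrays limits the precision. Of 45101 probe sets 64 were controls; GEO's platform annotation gave 1 symbol for 34945, several for 932 and none here for 9160. All 87 member probe sets matched RefSeq (GRCm38.p6) by gene ID. 

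Values were taken to log2(intensity + 32) and filtered as in the report. limma 3.58.1 in R 4.3.3 (lmFit, eBayes with trend, group as the only term) was fitted to all tested probe sets with Benjamini-Hochberg adjustment. Errors of fold changes are SE, of intensities SD. The fit was tested on simulated data. Members, lists and tests were chosen with earlier results of these data known. Values by array are given for called members and, where a role had no call, its 2 probe sets of highest mean. Values by array of any other member are outside this rule and are to be read as picked after they were seen. These include Cldn4, Cldn6, Cldn12, Cldn13, Crb3, St14, Epcam, Prss8 and the further probe sets of Cldn9, Prkci and Pard6b. The labels put same-numbered arrays in the same embryo pool, and the pairing rests on the labels. Subtracting group means left same-pool arrays correlated at 0.542, 0.286 and 0.436. The GFP-positive array of pool 3 correlated at 0.380 with the GFP-negative one of pool 2, and the reverse pair at 0.279. These values set pool 1 apart but cannot pair the arrays within pools 2 and 3. The fit with the pool as a block is given where it changes a call, for some marker genes by name only; other alternatives changed the offset, normalization, filter, variance model, unit, threshold and arrays. Promoters are RefSeq windows of GRCm38.p6. Python 3.11.15 drew the figures and searched the promoters.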

Additional observations from a re-analysis of the deposited data

How the results depend on the processing

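With the pool as a replicate block, 1372 probe sets were higher and 1371 lower among all, 13 and 5 among members (11 and 5 genes), and 10 and 7 among other junction genes. The 6 members that passed without it also passed with it. Without pool 1 and with the replicate block, 4287 and 5080 of all 25053 tested probe sets were higher and lower. There 16 and 14 of 58 members (12 and 9 genes) and 17 and 20 other junction probe sets passed. Without pool 2 and with the block the counts were 424 and 308 of 25031, 11 and 1 of 57 members (9 and 1 genes), and 4 and 1. Without pool 3 they were 815 and 817 of 25271, 10 and 2 of 56 members (8 and 2 genes), and 6 and 5. Leaving out each array or each pool without the block moved all probe sets from 2 to 3563 higher and 0 to 4080 lower, members from 0 to 15 and 0 to 12, member genes from 0 to 11 and 0 to 8, and other junction probe sets from 0 to 17 in each direction. Without a filter, 185 and 67 of all probe sets and 2 members of 2 genes (Cldn9 and Spint2) were higher and 0 lower. With an offset of 64, 3 members of 3 genes were higher. With 1 probe set per gene, 3 other junction genes were lower. At an adjusted p under 0.1, 739 and 560 of all, 9 members of 8 genes higher, and 5 and 3 other junction probe sets passed. The cause of these changes was not tested. Offset 16, quantile normalization and the 60th percentile filter kept the same 6 member calls, and eBayes without trend lost Cldn1. The 6 called members kept their sign in all 21 alternatives. Their groups did not overlap, so leaving out arrays or pools could not have changed a sign. The filter asked for 3 arrays also where arrays were left out, so fewer probe sets were tested there.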
